A study of Mus musculus with 8 samples.

Results

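The subject is the set of constitutive proteasome genes in interscapular brown adipose tissue, taken as every gene of the deposited table whose symbol begins with Psma, Psmb, Psmc or Psmd and a number, without the immunoproteasome genes Psmb8, Psmb9 and Psmb10. The rule found 35 of 11234 listed genes, of which 7 are core alpha (Psma), 7 core beta (Psmb), 7 regulatory Psmc and 14 regulatory Psmd. One of the 35, Psmc3ip, shares the prefix but encodes a partner protein of meiotic recombination and not a subunit. Psmd5, Psmd9 and Psmd10 encode chaperones of regulatory particle assembly. The tissue came from male C57BL/6 mice aged 12 weeks, held for 2 weeks at 29 °C (thermoneutrality) and killed at 5 PM (zeitgeber time 10). The 4 knockout libraries (replicates 4, 5, 19 and 20) carry Adiponectin-Cre and a floxed Hdac3 gene, and the 4 control libraries (replicates 11, 12, 13 and 14) carry floxed Hdac3 without Cre. Both genotypes thus hold the floxed allele, and the Cre is driven by the promoter of an adipocyte gene, so that other cells of the tissue keep the intact gene. Nothing in the labels ties a library to its own mouse, and the p-values cover library-to-library spread, which may be technical.

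The proteasome is the main protease of the cytosol and nucleus and degrades proteins tagged with ubiquitin. Its core particle is a barrel of stacked rings, in which alpha subunits form the gate and beta subunits the inner rings, where Psmb5, Psmb6 and Psmb7 carry the active sites. The regulatory particle caps the barrel. Its Psmc ATPases unfold the substrate, and its Psmd subunits bind and remove ubiquitin. In mouse brown fat, the transcription factor NFE2L1 is known to raise proteasome genes during adaptation to cold.

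Library totals implied by the RPKM values (reads per kilobase of gene model, scaled to sequencing depth) were 13619308 to 17986134, with 2738477 to 4170691 reads on listed genes. All levels below are RPKM scaled by TMM factors, which correct for composition, and fold changes are on log2(RPKM + 1) from limma, with a threshold of 0.05 on the Benjamini-Hochberg adjusted p over 8764 genes. The share of reads that fell on listed genes was 21.39% to 24.96% in knockout and 17.08% to 20.11% in control libraries and did not overlap between genotypes. It is this share that sets the scaling by library total apart from the scaling by reads on listed genes, and its part in the proteasome values was not tested. Hdac3 stood at 2.66, 3.93, 3.62 and 2.93 RPKM in knockout libraries (replicates 4, 5, 19 and 20, the order used throughout), against 6.91, 7.68, 7.98 and 8.001 RPKM in control libraries (replicates 11, 12, 13 and 14). Of the brown adipocyte markers, Ucp1, the uncoupling protein of heat production, stood at 2.02, 3.45, 8.26 and 2.32 RPKM in knockout libraries, against 147.1, 213.2, 116.6 and 158.9 RPKM in control libraries. Cox7a1, Ppargc1a and Ebf2 also fell (log2 fold changes -1.11, -0.69 and -0.37), Cidea rose (0.27), Elovl3 rose to 2.55 to 11.03 RPKM in knockout libraries, against 0 to 0.0347 RPKM in control libraries, and Cox8b and Prdm16 did not pass (-0.05 and 0.11). With the library total alone Ebf2 did not pass, and under the scaling by listed-gene reads Cidea did not. Adipoq, a marker of all adipocytes, averaged 317.8 ± 31.1 RPKM in knockout and 227.1 ± 18.8 RPKM in control libraries (SD, n = 4 each). In dissected tissue, fewer cells of a type and less RNA per cell cannot be told apart.

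Proteasome transcripts were higher in the knockout across both particles. Of the 34 members with a mean of at least 1 RPKM, 23 rose and 0 fell, where 19.4% of all genes tested rose and 15.9% fell. At an unadjusted p below 0.05, 0 members were lower, and the number of all genes lower at that p is not given here. With limma voom on recovered reads 23 members were called higher and 0 lower, where 1772 of all genes were higher and 1455 lower. The median log2 fold change was 0.37 over the members and 0.0074 over all genes tested. By class, 6 of 7 alpha genes rose, 5 of 7 beta genes, 5 of 6 Psmc genes and 7 of 14 Psmd genes. In 22 of the 34, all knockout libraries stood above all control libraries, a separation found for 18.8% of all genes tested, and in 0 they stood below. The remaining member, Psmc3ip, held 7 to 16 reads in knockout and 3 to 6 reads in control libraries and was not tested. Scaling by the library total alone shifts the median of all genes by 0.13, and scaling by the summed reads of listed genes (the listed-gene sum) shifts it by -0.12. With the library total alone 30 members rose (31.9% of all genes), and with the listed-gene sum 16 rose (12.4% of all genes), with 0 lower under both, where 7.17% and 30.2% of all genes fell. All 16 are among the 23, and 33 of 34 members lay above the median of all genes under each scaling. In the authors' deposited table, 23 members had an FDR below 0.05 and a higher value in the knockout, against 17.0% of all its genes. A lower value at that FDR was found for 0 members, against 16.6% of all its genes.

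**Figure D1:**
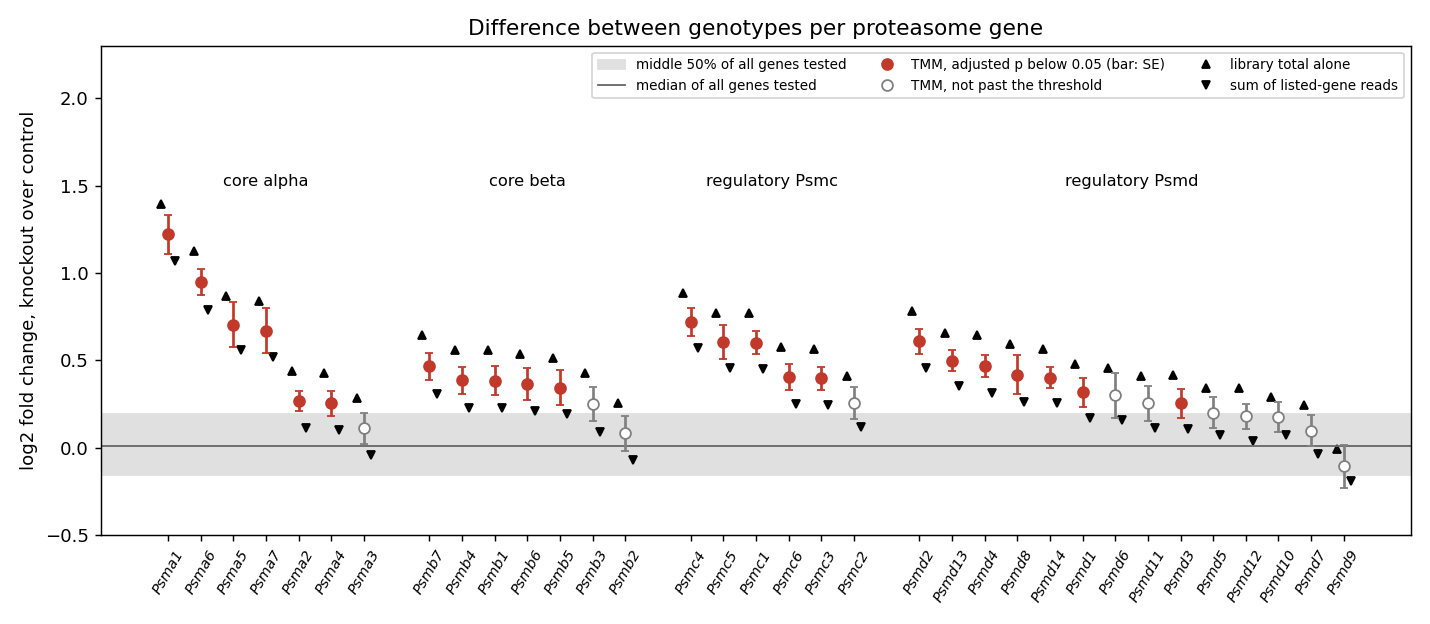
Log2 fold change of each tested proteasome gene (y axis, knockout over control, circles with SE bars; red where limma's adjusted p was below 0.05), ordered within class. Triangles give the value under 2 other scalings, the line and band the median and middle 50% of all genes tested; the alpha genes run from 0.11 to 1.22, the widest range of the classes.

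Because the members moved together, the DNA before their start sites was searched for the core of the antioxidant response element, the kind of site that NFE2L1 and NFE2L2 bind, written TGACNNNGC, and for the CCAAT box, on both strands. RefSeq windows of build GRCm38.p6, 250 bases before to 50 after a start, were matched for 29 of 35 members (31 windows); Psmb1, Psmb2, Psmb7, Psmc3, Psmd3 and Psmd7 had none. TGACNNNGC occurred in 5 member windows (16.1%), against 12.4% of 32851 windows of all genes, and CCAAT in 12 (38.7%), against 37.4%. Both shares lay near those of all genes. The windows with TGACNNNGC belong to Psmb5, Psmb6, Psmc6, Psmd12 and Psmd9, of which Psmb5, Psmb6 and Psmc6 rose, where 67.6% of all tested members rose. The following show 4 of these 5 beside Psma1, the member with the largest rise, which holds CCAAT on each strand and no TGACNNNGC. Capitals mark the motif matches. The windows are chr7:114276067-114276366, minus strand, for Psma1; chr14:54617946-54618245, minus strand, for Psmb5; chr11:70525107-70525406, plus strand, for Psmb6; chr14:45329574-45329873, plus strand, for Psmc6; and chr11:107479278-107479577, plus strand, for Psmd12.
Psma1: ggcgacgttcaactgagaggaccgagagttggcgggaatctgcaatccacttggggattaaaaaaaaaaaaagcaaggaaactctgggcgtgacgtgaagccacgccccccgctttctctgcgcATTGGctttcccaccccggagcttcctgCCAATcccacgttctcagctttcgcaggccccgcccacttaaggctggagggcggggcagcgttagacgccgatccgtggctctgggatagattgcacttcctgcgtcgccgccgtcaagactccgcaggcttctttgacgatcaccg
Psmb5: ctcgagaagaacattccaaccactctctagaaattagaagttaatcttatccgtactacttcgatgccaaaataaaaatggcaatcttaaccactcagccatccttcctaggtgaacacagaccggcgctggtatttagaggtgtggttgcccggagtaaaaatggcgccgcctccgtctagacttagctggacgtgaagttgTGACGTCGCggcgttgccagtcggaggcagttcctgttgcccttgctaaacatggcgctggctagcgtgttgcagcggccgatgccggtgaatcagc
Psmb6: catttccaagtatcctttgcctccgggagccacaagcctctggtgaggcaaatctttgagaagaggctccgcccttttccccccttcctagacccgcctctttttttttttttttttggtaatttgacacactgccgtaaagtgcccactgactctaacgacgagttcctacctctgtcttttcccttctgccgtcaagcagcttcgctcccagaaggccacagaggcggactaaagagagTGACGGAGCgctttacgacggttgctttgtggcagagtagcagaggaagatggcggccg
Psmc6: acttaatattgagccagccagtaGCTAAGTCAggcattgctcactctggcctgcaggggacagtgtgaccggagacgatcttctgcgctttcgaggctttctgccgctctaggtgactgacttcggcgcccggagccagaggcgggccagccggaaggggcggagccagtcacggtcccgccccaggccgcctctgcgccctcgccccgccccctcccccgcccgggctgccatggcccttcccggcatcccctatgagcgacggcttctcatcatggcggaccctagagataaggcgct
Psmd12: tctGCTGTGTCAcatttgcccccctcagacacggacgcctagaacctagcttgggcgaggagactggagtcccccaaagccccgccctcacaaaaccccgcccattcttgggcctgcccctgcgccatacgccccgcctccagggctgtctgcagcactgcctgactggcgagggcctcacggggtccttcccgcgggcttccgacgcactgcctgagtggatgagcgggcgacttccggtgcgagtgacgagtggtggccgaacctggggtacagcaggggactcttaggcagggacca
The match in Psmc6 and Psmd12 lies on the opposite strand and reads as the reverse complement.

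Among the alpha genes, whose products form the outer rings and the gate of the barrel, Psma1 and Psma6 showed the largest rises of all members. Psma1 stood at 39.6, 33.9, 48.3 and 38.7 RPKM in knockout libraries, against 14.1, 16.8, 17.0 and 18.5 RPKM in control libraries. The knockout mean was 2.42 times the control mean (log2 fold change 1.22 ± 0.11, SE; adjusted p = 3.39e-05). The lowest knockout library lay well above the highest control library, and the values rest on 698 to 1076 reads in knockout and 266 to 355 in control libraries. Psma6 stood at 60.4, 61.8, 65.3 and 59.8 RPKM in knockout libraries, against 28.9, 34.9, 30.5 and 32.3 RPKM in control libraries. Its genotypes did not overlap, and it was the most abundant core transcript in all 8 libraries (log2 fold change 0.95 ± 0.08, SE; adjusted p = 1.35e-05). Psma5 stood at 11.9, 12.0, 16.7 and 10.1 RPKM in knockout libraries, against 6.68, 6.97, 8.02 and 7.45 RPKM in control libraries (log2 fold change 0.71 ± 0.13, SE; adjusted p = 0.00178). Knockout replicate 19 was the highest of its group; without it the log2 fold change of Psma5 was 0.57 (adjusted p = 0.00122). Psma7 averaged 15.9 ± 2.91 RPKM in knockout and 9.53 ± 1.13 RPKM in control libraries (SD; adjusted p = 0.00277). Psma2 rose by a smaller amount, with 23.8 ± 0.655 RPKM in knockout and 19.6 ± 0.537 RPKM in control libraries (adjusted p = 0.00586). Psma4 averaged 21.4 ± 1.36 RPKM in knockout and 17.8 ± 1.05 RPKM in control libraries (adjusted p = 0.0201), and its call was lost without knockout replicate 19 or without control replicate 11 or 13 (adjusted p up to 0.0662). Psma3 overlapped between genotypes, at 17.8 to 21.5 RPKM in knockout and 15.9 to 20.8 RPKM in control libraries (adjusted p = 0.371). With the listed-gene sum Psma2 (adjusted p = 0.174) and Psma4 (adjusted p = 0.266) did not pass.

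Log2 fold changes of the 7 beta genes ran from 0.08 to 0.47, a narrower span than that of the alpha genes. Psmb7, the subunit with trypsin-like activity, had the smallest adjusted p of them, with 41.3, 37.4, 43.8 and 35.4 RPKM in knockout libraries, against 27.9, 27.4, 29.3 and 28.2 RPKM in control libraries (log2 fold change 0.47 ± 0.08, SE; adjusted p = 0.00127). The control libraries lay close together and below every knockout library. Psmb6, with caspase-like activity, stood at 27.2, 23.2, 29.0 and 24.7 RPKM in knockout libraries, against 18.2, 20.9, 18.8 and 21.9 RPKM in control libraries (log2 fold change 0.36 ± 0.09, SE; adjusted p = 0.0103). Psmb5, with chymotrypsin-like activity, stood at 17.8, 15.8, 18.4 and 15.8 RPKM in knockout libraries, against 11.5, 14.8, 11.5 and 15.0 RPKM in control libraries (log2 fold change 0.34 ± 0.10, SE; adjusted p = 0.0246). The genotypes of Psmb5 barely parted, and its call was lost when either of knockout replicates 4 and 19 or control replicates 11 and 13 was left out (adjusted p up to 0.0832). With the listed-gene sum neither Psmb5 (adjusted p = 0.134) nor Psmb6 (adjusted p = 0.062) passed. The structural subunits Psmb4 and Psmb1 also rose, without overlap between genotypes. Psmb4 stood at 31.3, 29.0, 32.2 and 26.8 RPKM in knockout libraries, against 21.5, 23.2, 21.3 and 24.3 RPKM in control libraries (adjusted p = 0.00397). Psmb1 stood at 26.5, 23.7, 28.8 and 23.3 RPKM in knockout libraries, against 20.2, 18.3, 19.8 and 18.9 RPKM in control libraries (adjusted p = 0.00445). Psmb3 averaged 31.9 ± 3.33 RPKM in knockout and 26.7 ± 2.88 RPKM in control libraries (adjusted p = 0.0738) and Psmb2 19.8 ± 2.33 RPKM in knockout and 18.6 ± 2.01 RPKM in control libraries (adjusted p = 0.55), and both overlapped between genotypes. With the library total alone Psmb3 passed (adjusted p = 0.0141) and Psmb2 did not (adjusted p = 0.104).

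**Figure D2:**
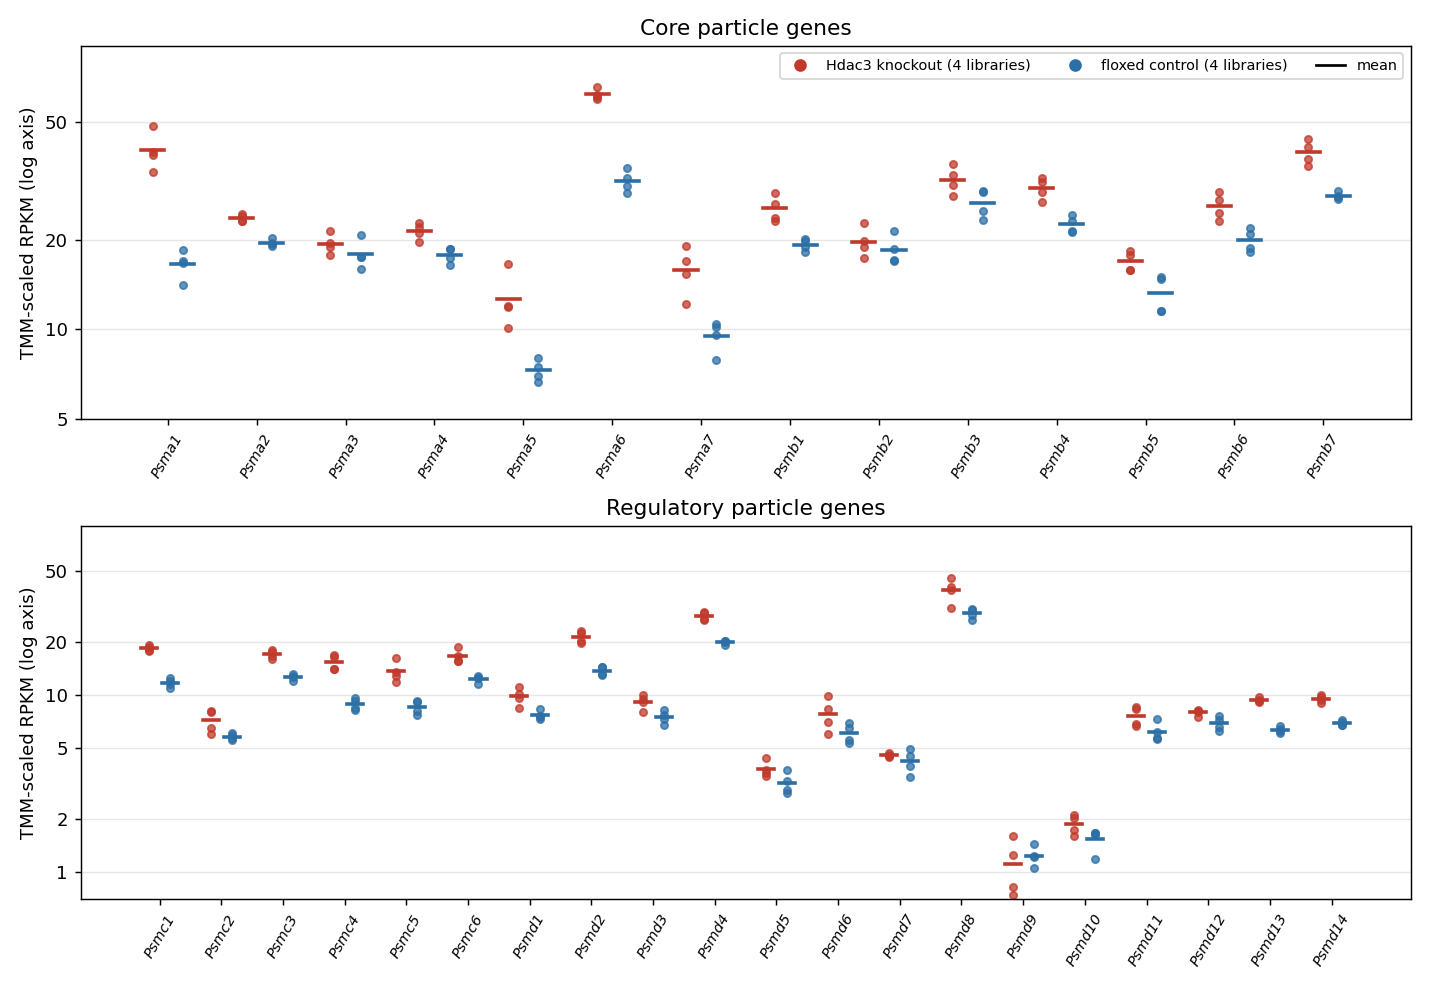
TMM-scaled RPKM (y axis, log scale) of each tested member in the 4 knockout libraries (red) and 4 control libraries (blue), with bars at the means, for core genes above and regulatory genes below. Psma1 and Psma6 part most widely, with knockout means of 40.1 and 61.8 against control means of 16.6 and 31.6. Psma3, Psmb2, Psmd7 and Psmd9 are among the 12 of 34 members whose genotypes overlap.

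The unequal rises changed the order of levels within the core. Ranked among the 14 core genes of a library, Psma1 ranked 2 or 3 from the top in the knockout libraries and 10 or 11 in the control libraries. Its mean rank was 2.5 in knockout and 10.75 in control libraries; no other core gene moved by more than 2.25 places. Psma6 ranked highest and Psma5 lowest in all 8 libraries. A rank within a library does not depend on library scaling. The coefficient of variation over the 14 genes was 45.04% to 50.5% in knockout and 33.7% to 36.8% in control libraries. Summed over the core, levels were 384.6 ± 32.7 RPKM in knockout and 268.8 ± 15.1 RPKM in control libraries, and over the 17 regulatory subunits 242.3 ± 10.6 RPKM in knockout and 174.2 ± 4.45 RPKM in control libraries (SD, n = 4 each).

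Of the Psmc ATPases, which form the ring that unfolds substrates and feeds them into the barrel, all but Psmc2 rose. Psmc1 stood at 19.1, 17.6, 18.7 and 17.9 RPKM in knockout libraries, against 12.5, 11.01, 11.5 and 11.9 RPKM in control libraries (log2 fold change 0.60 ± 0.06, SE; adjusted p = 7.95e-05). Psmc4 stood at 16.4, 13.98, 16.8 and 14.1 RPKM in knockout libraries, against 9.18, 9.66, 8.44 and 8.27 RPKM in control libraries (log2 fold change 0.72 ± 0.08, SE; adjusted p = 0.000126). Psmc5 stood at 13.6, 11.9, 16.1 and 12.7 RPKM in knockout libraries, against 7.67, 9.16, 9.27 and 8.07 RPKM in control libraries (log2 fold change 0.61 ± 0.10, SE; adjusted p = 0.000987). In each of these ATPase genes every knockout library exceeded every control library. Psmc6 (16.6 ± 1.49 RPKM in knockout and 12.3 ± 0.568 RPKM in control libraries, adjusted p = 0.00218) and Psmc3 (17.0 ± 0.877 RPKM in knockout and 12.6 ± 0.503 RPKM in control libraries, adjusted p = 0.00101) each rose by 0.40 on the log2 scale. Psmc2 averaged 7.17 ± 1.07 RPKM in knockout and 5.79 ± 0.235 RPKM in control libraries, just short of the threshold (adjusted p = 0.0525), and its knockout libraries split into 8.10 and 8.05 RPKM in replicates 4 and 5 and 6.01 and 6.52 RPKM in replicates 19 and 20. The same 5 ATPase genes passed with the library total alone and with the listed-gene sum, and Psmc2 passed with the first.

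Of the 14 Psmd genes, 7 rose, all of them among the 11 that encode subunits. Psmd2, a scaffold and ubiquitin-binding subunit of the base, stood at 23.1, 20.3, 22.5 and 19.8 RPKM in knockout libraries, against 12.98, 13.1, 14.4 and 14.3 RPKM in control libraries (log2 fold change 0.61 ± 0.07, SE; adjusted p = 0.000182). Psmd13, a subunit of the lid, stood at 9.79, 9.29, 9.08 and 9.34 RPKM in knockout libraries, against 6.65, 6.396, 6.24 and 6.09 RPKM in control libraries (log2 fold change 0.50 ± 0.06, SE; adjusted p = 0.000142). Psmd4, the ubiquitin receptor of the base, stood at 29.6, 27.0, 28.9 and 26.4 RPKM in knockout libraries, against 19.2, 20.3, 19.8 and 20.3 RPKM in control libraries (log2 fold change 0.47 ± 0.06, SE; adjusted p = 0.00038). All of these kept their genotypes apart. Psmd14, the deubiquitinase that removes ubiquitin chains, rose to 9.51 ± 0.409 RPKM in knockout libraries, against 6.95 ± 0.229 RPKM in control libraries (adjusted p = 0.000613), while Psmd7, its partner in the lid, averaged 4.55 ± 0.113 RPKM in knockout and 4.22 ± 0.652 RPKM in control libraries (adjusted p = 0.419). Psmd8, the most abundant regulatory transcript, averaged 39.2 ± 6.19 RPKM in knockout and 28.9 ± 1.93 RPKM in control libraries (adjusted p = 0.0152), a call lost without control replicate 11 (adjusted p = 0.0529). Psmd1, a scaffold of the base, averaged 9.83 ± 1.12 RPKM in knockout and 7.66 ± 0.447 RPKM in control libraries (adjusted p = 0.0137). Psmd3 averaged 9.14 ± 0.867 RPKM in knockout and 7.502 ± 0.615 RPKM in control libraries (adjusted p = 0.0362); its genotypes overlapped, and with each library left out in turn it passed only without knockout replicate 5 or control replicate 12. With the listed-gene sum Psmd1, Psmd3 and Psmd8 did not pass. The lid subunits Psmd6, Psmd11 and Psmd12 had log2 fold changes of 0.30, 0.25 and 0.18 and overlapping genotypes (adjusted p = 0.1, adjusted p = 0.0772 and adjusted p = 0.0727). None of the assembly chaperones passed with TMM scaling. With the library total alone these lid subunits passed (adjusted p = 0.0303, 0.0263 and 0.00417). So did the chaperones Psmd5 (adjusted p = 0.02) and Psmd10 (adjusted p = 0.0193), but not Psmd9 (adjusted p = 0.963). Psmd5 averaged 3.81 ± 0.413 RPKM in knockout and 3.19 ± 0.435 RPKM in control libraries, Psmd10 1.85 ± 0.235 RPKM in knockout and 1.53 ± 0.230 RPKM in control libraries, and Psmd9 1.10 ± 0.395 RPKM in knockout and 1.24 ± 0.157 RPKM in control libraries, and Psmd9 was the one tested member with a log2 fold change below 0. These chaperones held 24 to 165 reads per library, against 91 to 1292 for the regulatory subunits. In a later annotation an exon of Psmd9 overlaps a gene on the opposite strand by 1849 bases, so its values may include reads of that gene.

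Within the knockout group, the libraries did not stand in one order over all members. Replicate 19 was the highest knockout library in 13 of the 14 core genes (6 alpha and 7 beta) but in 5 of the 20 tested regulatory genes, and it was the lowest in 6 of those 20. Replicate 4 was highest in 12 regulatory genes. How often each replicate was highest or lowest over all genes tested is not given here. Psmd8 had its lowest knockout value, 30.9 RPKM, in replicate 19, and 39.4 to 45.8 RPKM in replicates 4, 5 and 20. Without replicate 19, 21 members rose and 0 fell (17.1% of all genes rose), with Psma4, Psmb5 and Psmd3 lost and Psmc2 gained. Over all 8 libraries left out in turn, 19 members rose every time. Single fits of this kind called 1439 to 1547 of all genes higher, and the number of all genes that rose every time is not given here.

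**Figure D3:**
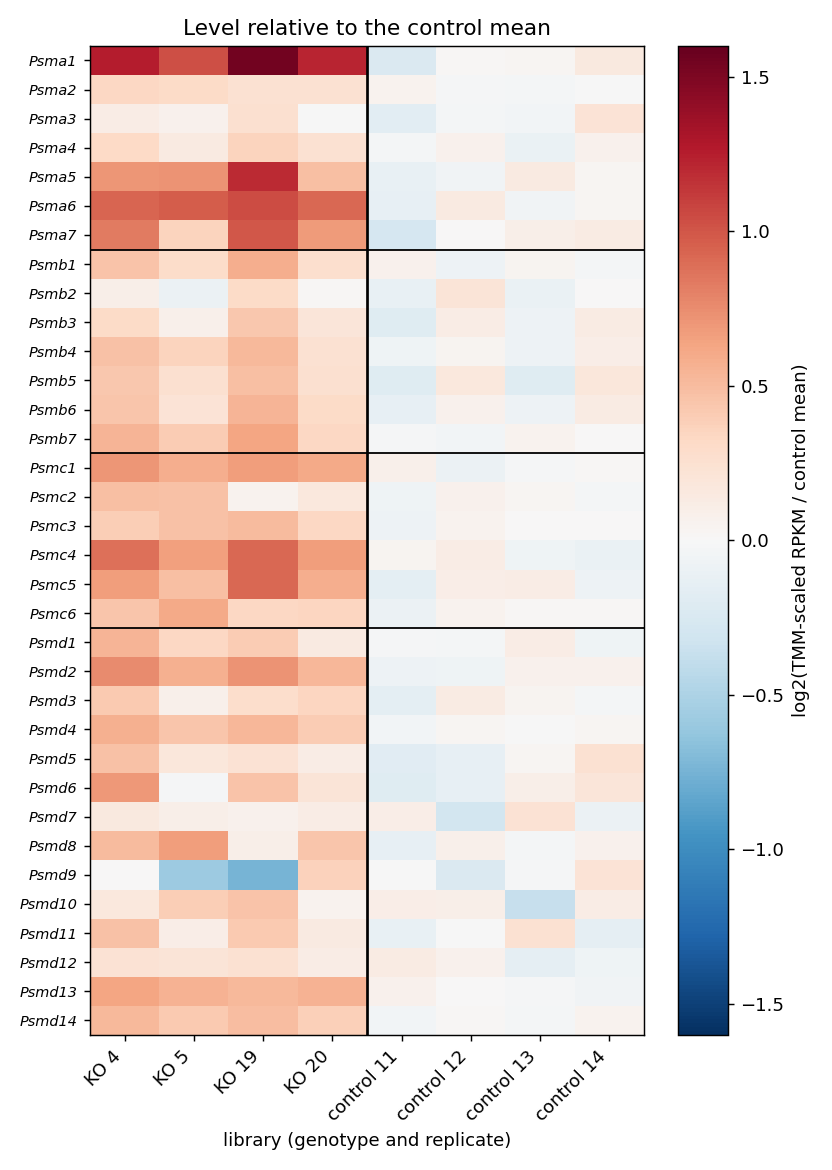
Log2 of the level in each library over the control mean (colour), for the 34 tested members (rows, by class) in the 4 knockout and 4 control libraries (columns). Knockout replicate 19 holds the highest values of Psma1, Psma5 and Psma7 and the lowest knockout values of Psmc2 and Psmd8.

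The immunoproteasome subunits Psmb8, Psmb9 and Psmb10 take the place of Psmb5, Psmb6 and Psmb7 when a core particle is assembled under interferon, and are used by immune cells. Psmb8 stood at 19.1, 16.9, 28.3 and 20.6 RPKM in knockout libraries, against 5.99, 7.83, 5.40 and 5.33 RPKM in control libraries (log2 fold change 1.63 ± 0.15, SE; adjusted p = 3.98e-05). Psmb9 stood at 12.0, 11.2, 21.8 and 11.1 RPKM in knockout libraries, against 4.30, 5.64, 4.18 and 4.37 RPKM in control libraries (log2 fold change 1.37 ± 0.19, SE; adjusted p = 0.000386). Psmb10 stood at 11.8, 10.2, 12.9 and 9.99 RPKM in knockout libraries, against 7.03, 9.69, 5.59 and 7.6 RPKM in control libraries (adjusted p = 0.0115). All of them had higher values in every knockout library. The ratio to the constitutive counterpart within a library, which needs no scaling, was compared for these 3 pairs. Psmb8 over Psmb5 was 1.07, 1.07, 1.54 and 1.30 in knockout libraries, against 0.519, 0.528, 0.468 and 0.356 in control libraries, a difference of 1.41 on the log2 scale (exact permutation test over 70 splits, two-sided p = 0.0286, the lowest value possible with 4 against 4; Benjamini-Hochberg over the 3 pairs 0.0429). Psmb9 over Psmb6 was 0.440, 0.483, 0.751 and 0.452 in knockout libraries, against 0.236, 0.269, 0.222 and 0.200 in control libraries, a difference of 1.17 (exact permutation p = 0.0286; adjusted 0.0429). Both ratios parted the genotypes completely. Psmb10 over Psmb7 was 0.274 to 0.295 in knockout and 0.191 to 0.354 in control libraries, a difference of 0.13 (exact permutation p = 0.6; adjusted 0.6). Without control replicate 12 this last difference was 0.28 (exact permutation p = 0.0286), and without control replicate 13 it was -0.02. With TMM scaling the constitutive genes of the first 2 pairs rose themselves, so the higher ratios rest on larger rises of the immunoproteasome genes. With the listed-gene sum Psmb5 and Psmb6 did not pass (limma adjusted p = 0.134 and 0.062). Psmb8 and Psmb9 then had log2 fold changes of 1.48 and 1.23.

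**Figure D4:**
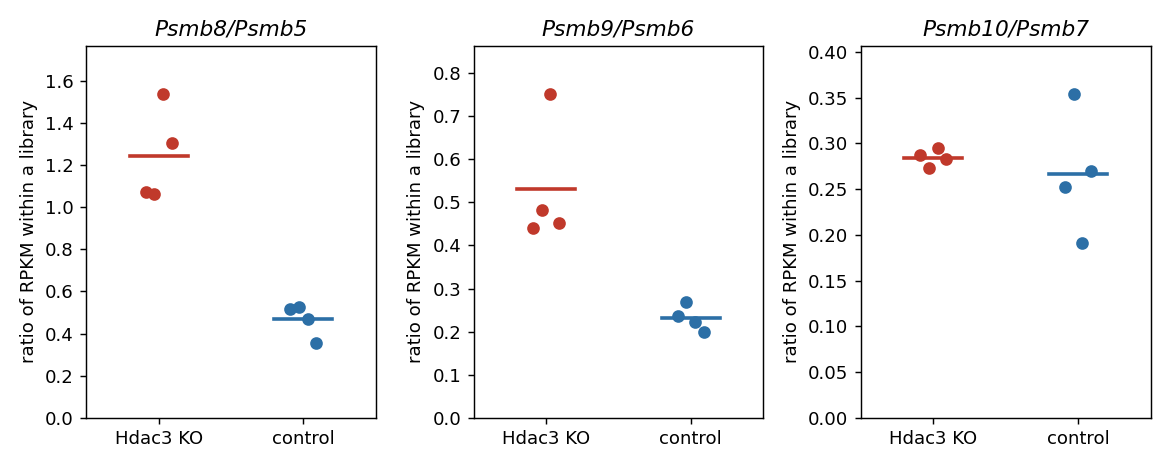
Ratio of RPKM within each library (y axis, from 0) for the 3 pairs of immunoproteasome and constitutive catalytic genes in the 4 knockout (left, red) and 4 control libraries (right, blue), with bars at the means. Knockout libraries lie above all control libraries for Psmb8/Psmb5 and Psmb9/Psmb6, and inside the range of the controls for Psmb10/Psmb7.

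Markers of other cells moved in the same libraries. Of 12 macrophage markers tested, 11 rose, where 19.4% of all genes tested rose and 15.9% fell. The 14 listed macrophage markers summed to 99.8 to 118.4 RPKM in knockout and 48.7 to 63.2 RPKM in control libraries. Of 10 adipocyte markers 7 rose, with sums of 5096 to 6348 RPKM in knockout and 2535 to 2756 RPKM in control libraries. Fabp4 made up the largest part of these sums, with means of 3985 RPKM in knockout and 1698 RPKM in control libraries. Pparg, Cebpa and Pnpla2 did not pass (log2 fold changes -0.14, 0.18 and 0.14). Of 8 brown adipocyte markers tested 2 rose and 4 fell, with sums of 1008 to 1176 RPKM in knockout and 1188 to 1521 RPKM in control libraries. Of 10 endothelial markers 1 fell, with sums of 75.8 to 93.5 RPKM in knockout and 78.4 to 101.2 RPKM in control libraries. Of the skeletal muscle markers, Des alone is listed; it fell to 1.79 ± 0.127 RPKM in knockout libraries, against 5.66 ± 0.938 RPKM in control libraries (log2 fold change -1.25; adjusted p = 1.04e-05), and fell under both other scalings. No listed marker was at 0 in all libraries. The part of these cells in the proteasome values was not tested.

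Genes that help to build, cap or feed the proteasome did not move as one. Of 37 such genes tested, the 3 immunoproteasome genes included, 16 rose and 3 fell, where 19.4% of all genes rose and 15.9% fell. The counts depend on the scaling, as do those of all genes. With the library total alone 21 rose and 0 fell (31.9% and 7.17% of all genes). Under the listed-gene sum 11 rose and 8 fell (12.4% and 30.2% of all genes). Pomp, which guides maturation of the core, stood at 18.1, 16.9, 19.95 and 17.4 RPKM in knockout libraries, against 11.8, 10.8, 11.7 and 12.2 RPKM in control libraries (log2 fold change 0.60 ± 0.07, SE; adjusted p = 0.00017). The core assembly chaperones Psmg1, Psmg2, Psmg3 and Psmg4 did not pass, with log2 fold changes of -0.19, -0.27, -0.25 and 0.26; with the listed-gene sum Psmg1 and Psmg2 fell, and with the library total Psmg4 rose. Among activators and the inhibitor Psmf1, only Psme2 of 6 passed. Psme2 stood at 24.2, 27.1, 32.4 and 22.7 RPKM in knockout libraries, against 15.1, 17.9, 18.8 and 17.02 RPKM in control libraries (adjusted p = 0.00242). Psme1, which forms the same activator ring, overlapped between genotypes, with 26.5, 25.5, 30.3 and 24.98 RPKM in knockout libraries, against 23.7, 30.7, 19.9 and 25.8 RPKM in control libraries (adjusted p = 0.512). Adrm1, the ubiquitin receptor of the regulatory particle that lacks the Psmd prefix, averaged 12.5 ± 1.24 RPKM in knockout and 8.09 ± 0.712 RPKM in control libraries (adjusted p = 0.000645). The proteasome-bound deubiquitinases Uchl5 and Usp14 had log2 fold changes of -0.31 and -0.15 and did not pass (adjusted p = 0.0885 and adjusted p = 0.0614), though both fell with the listed-gene sum. Among ubiquitin genes and shuttle factors 5 of 10 rose and 1 fell. With the library total alone the counts were 8 and 0 and with the listed-gene sum 2 and 1. Ddi2, one of the 5, is also in the list for the NFE2L1 route below and is counted once among the 37. Ubqln4, a shuttle factor, fell to 5.24 ± 0.151 RPKM in knockout libraries, against 6.84 ± 0.662 RPKM in control libraries (adjusted p = 0.00569).

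NFE2L1 is processed after release from the endoplasmic reticulum. Of 10 tested genes listed for its route, 6 rose and 2 fell. The list includes Nfe2l2, which is not a step of that route and is among those that rose under each scaling. With the library total alone the counts were 6 and 0 and with the listed-gene sum 3 and 2. Of all genes tested, 19.4% rose with TMM scaling, 31.9% with the library total alone and 12.4% with the listed-gene sum. Nfe2l1 itself stood at 30.5, 31.1, 28.6 and 27.6 RPKM in knockout libraries, against 25.2, 25.4, 22.5 and 23.6 RPKM in control libraries (log2 fold change 0.27 ± 0.07, SE; adjusted p = 0.0127). The groups did not overlap, but the gene did not pass with the listed-gene sum (adjusted p = 0.234). Nploc4, a cofactor of Vcp, the ATPase that extracts NFE2L1, averaged 5.15 ± 0.197 RPKM in knockout and 4.03 ± 0.0876 RPKM in control libraries (adjusted p = 0.00283), and Ngly1, the enzyme that removes sugar chains from NFE2L1, 7.48 ± 0.119 RPKM in knockout and 5.49 ± 0.316 RPKM in control libraries (adjusted p = 0.000762). Nfe2l2, a related factor, averaged 9.77 ± 0.885 RPKM in knockout and 7.23 ± 0.601 RPKM in control libraries (adjusted p = 0.00437). Errors given with 2 means are SD with n = 4.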

How the data were processed

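Ribosomal RNA was removed from total RNA of 8 tissue samples before sequencing. The submitters' processing notes name TopHat2, featureCounts, edgeR and the build mm9, and their versions, the strand setting, the annotation and the gene filter were not given in the sources used here. According to the column names (per the file headers), the deposited values are RPKM for each library. The authors also deposited, by gene, a log2 fold change (positive for genes higher in knockout), an abundance in log2 CPM, and a p-value with its FDR.

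Whole reads and library totals were recovered from the RPKM steps (100% of values whole within 0.001 reads; 21 genes corrected for a shared factor). Reads carry no molecular identifiers, and their number gives counting error only. The design named limma with a trend for a table of RPKM: genes averaging at least 1 deposited RPKM were fitted with limma 3.58.1 (R 4.3.3) as log2(RPKM + 1) after TMM scaling (trims of 0.3 and 0.05), two-sided. This filter removed 1 member. The pseudocount of 1 makes the changes of weakly expressed genes appear too small. The method was tested on simulated data in which 200 genes were changed. No difference between genotypes in the share of reads on listed genes was built in, so that simulation does not cover the choice of scaling. No other per-sample columns are in the table. Figures and summaries used Python 3.11.15, pandas 2.3.3 and matplotlib 3.10.9.

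The members, gene lists and motifs were chosen with earlier results of these data known. Values per library are given for up to 3 members per class with the smallest adjusted p, the catalytic genes, Hdac3, Ucp1, Pomp, Psme1, Psme2 and Nfe2l1. Up to 3 called genes of each other list have means with SD, and all members are accounted for. Some genes of the other lists are not reported here by name. Alternatives were RLE factors, the library total, the listed-gene sum, a pseudocount of 0.1, tests of all genes or of those with CPM above 1 in 4 or more libraries, voom with limma for the recovered reads, calls limited to log2 fold changes of 0.5 or more, and leaving out each library.

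In the GENCODE M21 annotation of the later build GRCm38, exons of Psma4, Psma5, Psmb7, Psmb8, Psmb9, Psmc3, Psmd1, Psmd3, Psmd9 and Psmd13 overlap a gene on the opposite strand, and those of Psmb5 and Psmd1 one on the same strand; Psmb5, Psmb6 and Psmb7 have named pseudogenes. The longest of these exon overlaps was that of Psmd9, 1849 bases, where its gene model in the deposited values is 2591 bases long. Values of these genes are uncertain to that extent.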

Additional observations from a re-analysis of the deposited data

Results flagged for a closer look

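Within each genotype, 3 of 88 groups of 4 libraries examined held 1 library well apart from the rest; chance alone gives about 1 in 20 groups, or 4.40 of 88. In knockout replicate 19, Psmb9 was at 21.8 RPKM, and in knockout replicates 4, 5 and 20 it was at 11.1 to 12.0 RPKM. Psmb9 also stood at 5.64 RPKM in control replicate 12, against 4.18 to 4.37 RPKM in the other control libraries. Psmd10 stood at 1.18 RPKM in control replicate 13, against 1.62 to 1.66 RPKM in the others.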

How the results depend on the processing

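Scaling and a fold threshold moved the counts. Over all genes tested, 1703 rose and 1391 fell; with the library total alone the counts were 2796 and 628, with the listed-gene sum 1087 and 2651, and with a log2 fold change of at least 0.5 they were 712 and 412. Of the 23 members that rose, 8 remained with that fold change, and 16 rose under each scaling, filter, pseudocount, test and left-out library tried. The number of all genes that rose under each of these is not given here. The median of the members minus that of all genes was 0.37, 0.41 with the library total and 0.33 with the listed-gene sum. With the listed-gene sum, log2 fold changes changed sign to -0.043 for Psma3, -0.071 for Psmb2, -0.033 for Psmd7 and -0.046 for Psme1, none of which passed; leaving out each library put Psme1 between -0.0042 (without control replicate 13) and 0.20. Of the other pathway genes 16 rose and 3 fell; 7 and 0 did with the fold threshold, and 0 fell with the library total and 8 with the listed-gene sum. Leaving out each library gave 19 to 25 members higher and 0 lower, 1439 to 1547 genes higher and 1162 to 1300 lower, 13 to 16 and 2 to 4 pathway genes, and differences of 0.32 to 0.39 in the medians. The log2 ratios then differed by 1.29 to 1.48 for Psmb8 to Psmb5, 0.99 to 1.25 for Psmb9 to Psmb6 and -0.021 (without control replicate 13) to 0.28 for Psmb10 to Psmb7. No paired analysis was possible because the genotypes share no replicate number. The causes were not tested. Psmc3ip, at 3 to 16 reads, was too shallow for a comparison.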
